A study of Mus musculus with 4 samples.

Results

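The p53 target and apoptosis genes described here are 30 mouse genes chosen by name: p53 itself, genes that p53 is known to switch on, and core genes of programmed cell death. All 30 had at least 1 probe usable on all 4 arrays, among 16862 genes that did. They were read by 47 probes in all, and each gene is given by its brightest probe. RNA of mouse skin was hybridised to one-colour Agilent arrays, with 1 array per group and 3 animals per group by the study design. The sources used here do not say whether RNA was pooled within a group.

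The 4 groups were treated tail skin, untreated tail skin, treated back skin and untreated back skin. Treatment was a cream with methyl aminolevulinate (Metvix), from which cells make a light-absorbing porphyrin, followed by 2.5 h in darkness and red light of 636 nm. Under that light the porphyrin makes reactive oxygen species. Tails were given 10 J/cm2 of light and backs 2.5 J/cm2, and skin was sampled after 48 h. Treated backs were fully shaved. What was done to the skin of the control animals, and the strain, sex and age of the mice, are not given in the sources used here. For the tail the labels name skin and the RNA protocol names epidermis, and which of them was taken is not settled by the sources used here.

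p53 is a transcription factor that is held at a low level by the ubiquitin ligase Mdm2, itself a p53 target, so the pair forms a feedback loop. DNA damage and other stress, oxidants included, stabilise the p53 protein, often with little change in its mRNA. It then switches on genes that stop the cell cycle, such as Cdkn1a, genes that adjust metabolism, such as the sestrins, and genes that open the mitochondrial outer membrane, such as Bax, Bbc3 and Pmaip1. In skin, p53 in keratinocytes is best known for its part in the response to ultraviolet light.

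p53 binds DNA through a 10-base consensus, the p53 response element decamer, of which a full element holds a pair. RefSeq promoter windows (GRCm38.p6, 250 bases before to 50 after a transcript start) were found for 25 of the 30 genes, and 8 of the 25 (32%) held at least 1 exact match to this decamer. Among all 27025 genes with a window, 9.55% held one. The consensus is its own reverse complement, so 1 strand covers both. The 8 were Cdkn1a, Mdm2, Bax, Sesn1, Ccng1, Gadd45a, Aen and Trp53. The windows of the following 4 genes are shown because they are the feedback ligase and 3 of the genes that differed in back skin. Matches are in capitals.
Cdkn1a, chr17:29090729-29090978, plus strand, all 250 bases before the more upstream start: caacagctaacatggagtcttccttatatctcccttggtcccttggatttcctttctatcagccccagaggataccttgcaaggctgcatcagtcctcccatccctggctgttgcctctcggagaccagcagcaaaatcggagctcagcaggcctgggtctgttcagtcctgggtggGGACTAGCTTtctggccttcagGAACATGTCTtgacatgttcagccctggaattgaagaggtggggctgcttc
Mdm2, chr10:117710910-117710969, minus strand: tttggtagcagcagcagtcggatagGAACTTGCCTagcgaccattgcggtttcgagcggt
Bax, chr7:45467065-45467124, minus strand: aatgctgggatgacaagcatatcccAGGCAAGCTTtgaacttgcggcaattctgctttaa
Sesn1, chr10:41887241-41887300, plus strand: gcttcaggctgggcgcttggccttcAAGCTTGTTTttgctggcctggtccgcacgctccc
The first bases of these matches lie 73 and 51 bases before the start in Cdkn1a, 186 in Mdm2, 201 in Bax and 173 in Sesn1. Cdkn1a was the only one of the 25 with a pair of matches no more than 13 bases apart, which 0.0740% of all genes with a window had. A match describes these letters only, and binding was not measured.

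Levels below are log2 of the processed signal relative to the array's 75th percentile, so a level of 0 is that percentile. A difference between groups is the difference of these levels, and it is called when it reaches 2-fold, which is 1 on this scale. With 1 array per group no difference could be set against the spread between replicates, and no p-value is given. The error given after a difference is the scanner's error for the spots alone, without the spread between animals. Levels of different genes come from different probes and are not compared.

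The arrays differed in brightness, and this limits what can be read from the brightest genes. The 75th percentile of the signal was 909 on the tail treated array and 7261 on the tail control array, and 1204 on the back treated and 1860 on the back control array. The brightest probe was saturated for 1 and 9 of the 30 genes on the tail treated and tail control arrays, and for 4 and 7 on the back treated and back control arrays. A saturated spot gives only a lower limit, so a difference is given as a bound where its direction allows and is left out otherwise. None of the 30 was too dim to measure on any array. The 7 epidermal markers on the array, mostly keratins, had median levels of 6.06 in treated and 3.16 in control tail skin and of 5.64 in treated and 5.05 in control back skin. For 6 of them saturation left no treatment difference, so the amount of epidermis cannot be compared from them. The other one, Ivl, which encodes a protein of the cornified envelope, differed by 0.09 in treated against control tail skin and by -1.98 in treated against control back skin.

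**Figure D1:**
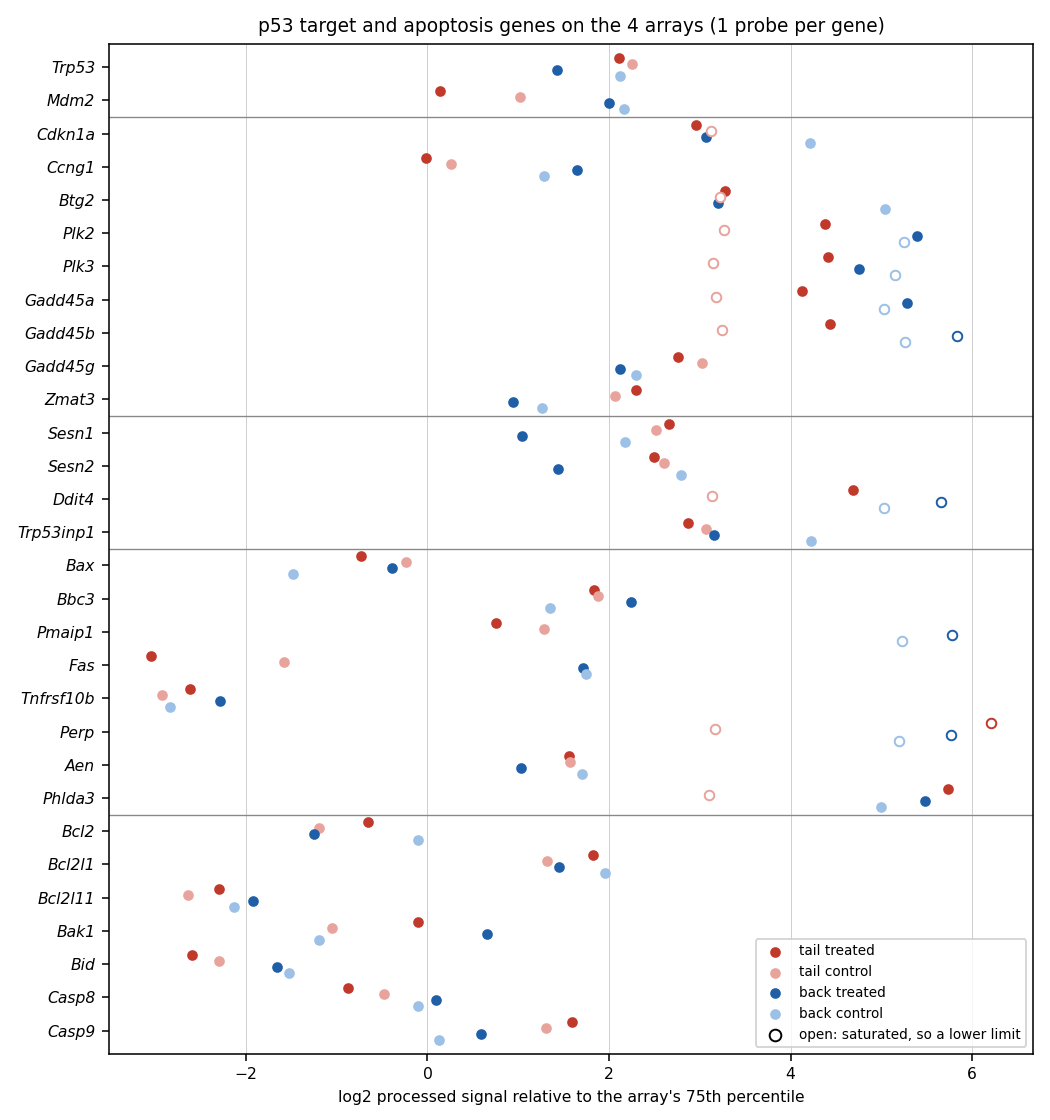
Level of each of the 30 genes on the 4 arrays (x axis, log2 processed signal relative to the array's 75th percentile), with 1 point per array and genes grouped by role. Open points are saturated spots and mark lower limits, as for all 4 points of Perp and 9 points of the tail control array. Fas and Pmaip1 show the widest gap between back and tail.

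In treated tail skin 1 of the 22 genes with a value was called. It was the death receptor gene Fas, which was lower, and 8 genes had no value there because of saturation. In treated back skin 8 genes were called. The cell cycle inhibitor Cdkn1a, the growth suppressor Btg2, the sestrins Sesn1 and Sesn2, Trp53inp1 and the survival gene Bcl2 were lower, while the pore-forming death gene Bax was higher. Bak1, the other pore-forming gene, was higher by 1.86 with its brightest probe but stood at -1.30 with its other probe. In bulk tissue, fewer cells of a type and less RNA per cell cannot be told apart.

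In the tail 22 of the 30 genes had a value, of which 21 were measured on both arrays. Of these 22, 0 were higher and 1 was lower, against 27.2% of all 12858 genes with a value called higher and 6.55% called lower, or 33.7% either way. Their median difference was -0.12, against 0.33 for all genes with a value. The tail counts moved with the scaling. Cyclic loess gave 1 higher and 5 lower, with a median over all genes of -0.07, and spike-in scaling gave 24 lower, with a median over all genes of -1.63. In the back 24 of the 30 had a value, with 2 higher and 6 lower, against 13.6% and 12.6% of all 13461 genes with a value, or 26.2% either way. Their median was -0.17 and that of all genes -0.01. Genes left out were saturated ones, so the counts describe less bright members only.

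**Figure D2:**
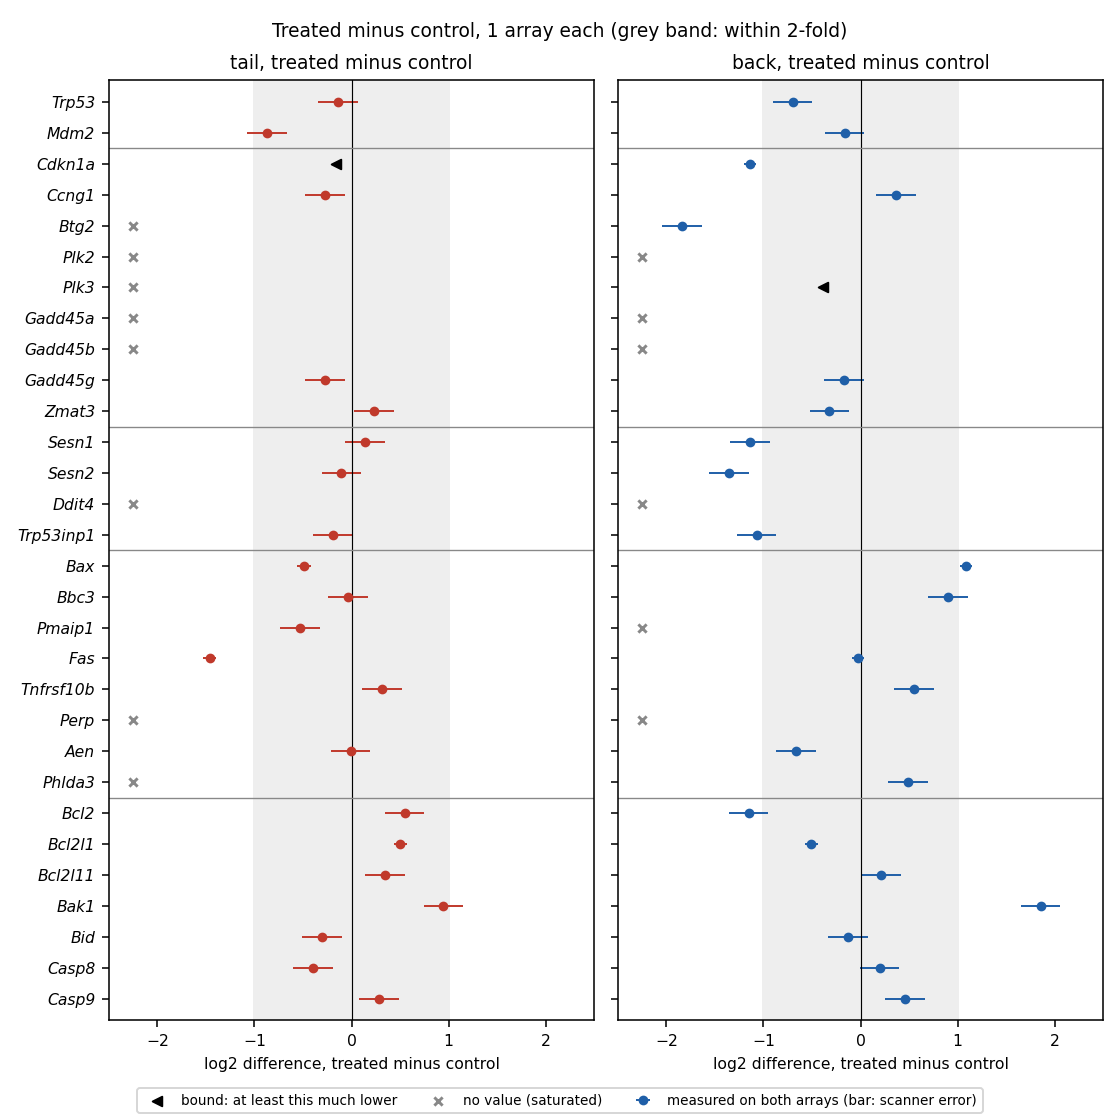
Treated minus control difference of each gene (x axis, log2) in tail and back skin, from 1 array per group, with bars for the scanner's spot error, triangles for bounds and crosses for genes without a value because of saturation. In the back, Cdkn1a, Btg2, Sesn1, Sesn2, Trp53inp1 and Bcl2 lie left of the 2-fold band and Bax and Bak1 right of it, while in the tail only Fas lies outside it.

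Neither p53 nor its feedback ligase reached 2-fold in either skin. Trp53, which encodes p53, had levels of 2.11 in treated and 2.25 in control tail skin, and of 1.42 in treated and 2.12 in control back skin. The differences were -0.14 ± 0.20 in the tail and -0.70 ± 0.20 in the back, both within 2-fold. Its other probe gave -0.46 and -0.44, so both probes were below 0 in both skins. Mdm2 had levels of 0.14 in treated and 1.02 in control tail skin, a difference of -0.87 ± 0.20 that the other probe gave as -0.98. In the back its levels were 2.00 in treated and 2.17 in control skin, and the probes gave -0.16 and 0.03. Mdm2 mRNA was thus nearly 2-fold lower on the treated tail array by both probes and differed little in the back.

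Of the 9 targets that act on the cell cycle and growth, 2 of 6 with a value were lower in the back. The share over all genes was 12.6%. In the tail 0 of 4 were called, against 33.7% of all genes either way, and saturation left 5 without a value. The Cdkn1a value among those 4 was a bound, which does not show that the gene stayed within 2-fold. Cdkn1a encodes p21, the inhibitor of cyclin-dependent kinases that halts cells before they copy their DNA, and its promoter window is the first shown above. Its levels were 3.07 in treated and 4.21 in control back skin, a difference of -1.14 ± 0.065 or 2.20-fold. In the tail the control spots were saturated, and treated skin at 2.96 was lower than control by at least 0.16. Btg2, a regulator that slows proliferation, had levels of 3.20 in treated and 5.04 in control back skin, a difference of -1.84 ± 0.20 or 3.57-fold. That control level was not flagged, but it lay above the lowest saturated level on the array, 4.97. Its 2 dimmer probes gave -0.84 and -0.60, the same sign but within 2-fold. In the tail the brightest Btg2 probe was saturated on the control array, while the 2 dimmer probes gave -1.35 and -1.24, both past 2-fold lower.

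Gadd45a, Gadd45b and Gadd45g encode small stress proteins that bind cell cycle and kinase partners. The only Gadd45a probe was saturated in both controls, so it gave no difference. The brightest Gadd45b probe was saturated on 3 arrays, but its other probe was unsaturated on all 4. That probe read 1.79 in treated and 3.00 in control tail skin, and 3.62 in treated and 4.69 in control back skin. Gadd45b was thus lower by this probe in both skins, at -1.21 ± 0.20 in the tail and -1.07 ± 0.20 in the back, a reading chosen after the saturation was seen. Gadd45g differed little, at -0.27 in the tail and -0.17 in the back. The polo-like kinase genes Plk2 and Plk3 were saturated in both controls, and Plk3 was lower in treated back skin by at least 0.39. The cyclin gene Ccng1 differed by -0.27 in the tail and 0.37 in the back, and Zmat3, which encodes an RNA-binding zinc finger protein, by 0.23 and -0.32. The other Ccng1 probe gave 0.15 in the tail and 0.79 in the back.

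Of the 4 targets that adjust metabolism, 3 had a value in back skin and all 3 were called lower, against 12.6% of all genes. Sesn1 and Sesn2 encode sestrins, which restrain the growth kinase complex mTORC1 and take part in antioxidant defence. Sesn1 had levels of 1.04 in treated and 2.18 in control back skin, and Sesn2 levels of 1.43 and 2.79 in the same groups. The differences were -1.14 ± 0.20 and -1.36 ± 0.20, and the other probes of Sesn1 gave -1.39 and -1.47. Trp53inp1, whose product binds p53 and promotes cell death and autophagy, had levels of 3.15 in treated and 4.22 in control back skin. Its difference was -1.07 ± 0.20, and -0.93 by the other probe. All 3 lay below their untreated back level by more than the spot error.
In the tail the same 3 genes differed by 0.14, -0.10 and -0.19. The 3 Sesn1 probes disagreed there, since the dimmer ones gave -0.83 and -1.28. The Trp53inp1 level of 3.06 in control tail skin was not flagged, but it lay above the lowest saturated level on that array, 3.04. Its tail difference may therefore be affected by saturation, and its dimmer probe gave 0.01. Ddit4, another restraint on mTORC1, was saturated on 3 arrays and gave no treatment difference in either skin.

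Of the 8 targets that induce cell death, 1 of 6 with a value was higher in the back (Bax), against 13.6% of all genes. In the tail 1 of 6 was lower (Fas), against 6.55% of all genes. These counts rest on 6 genes in each skin. Bax, whose product permeabilises the mitochondrial outer membrane, had levels of -0.39 in treated and -1.48 in control back skin, a difference of 1.09 ± 0.065 or 2.12-fold. In the tail its levels were -0.73 in treated and -0.24 in control skin, a difference of -0.49 ± 0.068. Bbc3, which encodes the BH3-only protein PUMA that unleashes Bax, had levels of 2.25 in treated and 1.35 in control back skin. Its difference of 0.90 ± 0.20 in the back stayed within 2-fold, and that in the tail was -0.03. Pmaip1, which encodes the BH3-only protein NOXA, had levels of 0.75 in treated and 1.28 in control tail skin (-0.53 ± 0.20) and was saturated on both back arrays.

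Fas encodes the death receptor that binds Fas ligand. Its levels were -3.05 in treated and -1.59 in control tail skin, a difference of -1.46 ± 0.065 or 2.75-fold lower. In back skin its levels were 1.72 in treated and 1.74 in control, a difference of -0.03 ± 0.065. With normexp background correction the tail difference turned to 0.69. The TRAIL receptor gene Tnfrsf10b differed by 0.31 in the tail and 0.55 in the back, and the nuclease gene Aen by -0.01 and -0.67. Phlda3, whose product restrains the survival kinase AKT, had levels of 5.48 in treated and 4.99 in control back skin, a difference of 0.49 ± 0.20. Its control level there was also above the lowest saturated level of 4.97, though not flagged. Perp, a p53 target that also encodes a desmosome protein of stratified epithelia, was saturated on all 4 arrays.

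Of the core apoptosis genes, Bak1 had the highest difference of all members, but its probes disagreed. Bak1 encodes the second pore-forming protein beside Bax. Its brighter probe read 0.66 in treated and -1.20 in control back skin, a difference of 1.86 ± 0.20. Its other probe read -1.95 and -0.65 in the same groups, a difference of -1.30 ± 0.20, so the direction for Bak1 rests on the probe. For the tail the brighter Bak1 probe gave 0.95 ± 0.20 and the other -0.08. Bcl2, which blocks both pore formers, had levels of -1.26 in treated and -0.10 in control back skin, a difference of -1.15 ± 0.20, and -0.68 by its other probe. In the tail its probes gave 0.55 and -0.87 and so had opposite signs.
The survival gene Bcl2l1, which encodes BCL-XL, differed by 0.50 in the tail and -0.51 in the back. Its dimmer probes gave -0.50 and 0.66 in the tail and -0.20 and -0.38 in the back. Bcl2l11, which encodes the BH3-only protein BIM, differed by 0.35 and 0.21, and Bid, which links death receptors to mitochondria, by -0.30 and -0.13. The initiator caspases differed by less than 2-fold in both skins, with Casp8 of the receptor pathway at -0.40 and 0.20, and Casp9 of the mitochondrial pathway at 0.29 and 0.46.

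Several probes read 13 of the 30 genes and a single probe read 17. Where 2 or more probes of a gene were measured, all had the same sign for 5 of 11 genes in the tail and 9 of 12 in the back. The median SD between probes of a gene was 0.30 in the tail and 0.32 in the back, which is larger than the spot error. In the back the genes with probes of opposite sign were Bak1, Mdm2 and Tnfrsf10b. In the tail they were Bak1, Bcl2, Bcl2l1, Ccng1, Sesn1 and Trp53inp1.

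**Figure D3:**
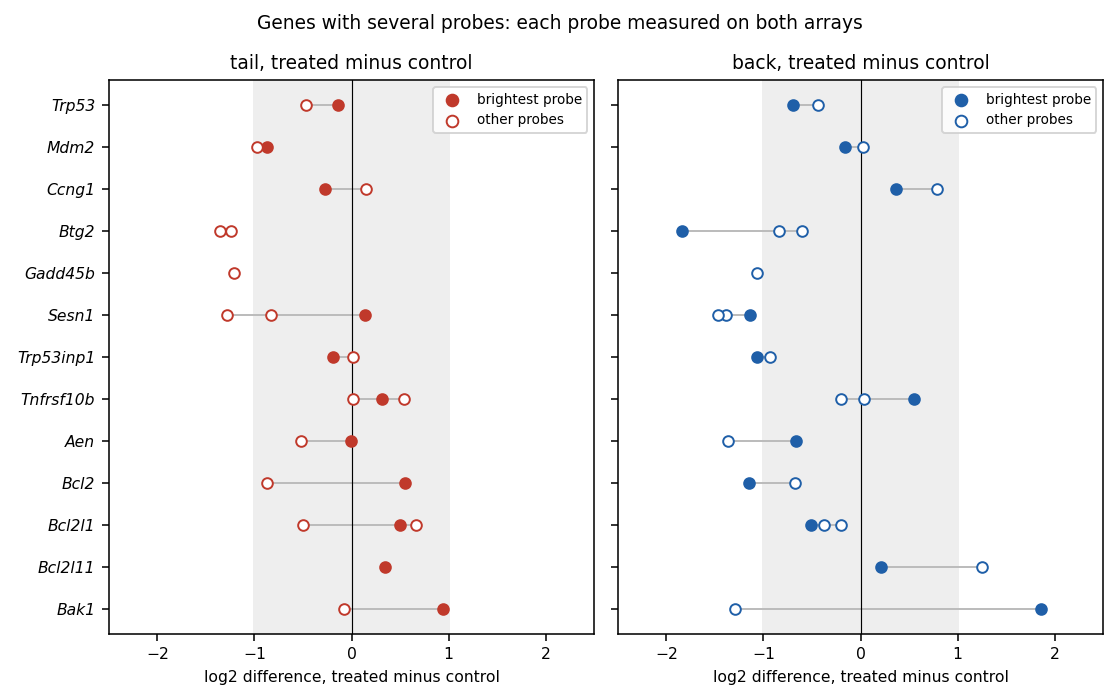
Treated minus control difference (x axis, log2) by each probe measured on both arrays, for the 13 genes with several probes, in tail and back skin. Filled points are the brightest probe and open points the others. In the back the probes of Sesn1 and Trp53inp1 lie close together below 0, while those of Bak1 lie on opposite sides at 1.86 and -1.30.

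Among the 21 genes with a value in both skins, none was called in both, against 8.80% of all 12038 genes with a value in both. Genes left without a value by saturation are not among the 21. By its unsaturated probe Gadd45b was past 2-fold lower in both skins, at -1.21 and -1.07. Btg2 was past 2-fold lower in the tail by its dimmer probes (-1.35 and -1.24) and in the back by its brightest only (-1.84). Fas was called lower with the back within 2-fold, as were 4.55% of all genes. In the back 5 genes were lower with the tail counted as within 2-fold (23.8%, against 8.07% of all genes), namely Cdkn1a, Sesn1, Sesn2, Trp53inp1 and Bcl2. For Cdkn1a the tail value is only a bound, lower by at least 0.16 against saturated control spots. Whether Cdkn1a was past 2-fold lower in the tail too is therefore not known. Bax and, by its brightest probe only, Bak1 were higher in the same way (9.52%, against 9.28% of all genes). By that probe Bak1 was also higher in the tail by 0.95, just short of 2-fold, while Bax differed by -0.49 there. The other 13 (61.9%) were within 2-fold in both skins, against 51.4% of all genes. The light dose differed between the skins, so these are values side by side. The back difference minus the tail difference could be measured for 20 genes. It was past 2-fold above 0 for Bax at 1.57 and Fas at 1.44, and below 0 for Bcl2 at -1.70, Sesn1 at -1.28, Sesn2 at -1.25 and Bcl2l1 at -1.01. These 2 and 4 of 20 stand against 15.5% and 28.6% of all 11281 genes measured on the 4 arrays, or 44.2% either way. With spike-in scaling Sesn1, Sesn2 and Bcl2l1 changed sign, and with normexp Fas did. Of 10 other settings, Bcl2l1 kept this call in 3, Sesn1 in 5, Sesn2 in 6 and Bcl2 in 8, while Bax kept it in 10. With the mean of probes Bcl2, Sesn1 and Bcl2l1 were not past 2-fold. The other Bcl2 probe gave -0.87 in the tail and -0.68 in the back. The dimmer Sesn1 probes gave -0.83 and -1.28 in the tail, and -1.39 and -1.47 in the back. Those of Bcl2l1 gave -0.50 and 0.66 in the tail, and -0.20 and -0.38 in the back.

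The untreated skins were then compared, back control minus tail control. Pmaip1 and Fas were the members with the highest values. Pmaip1 had a level of 5.22, a lower limit from saturated spots, in untreated back skin and 1.28 in untreated tail skin, so it was at least 15.3-fold higher in the back. Fas had levels of 1.74 and -1.59 in the same groups, a difference of 3.33 ± 0.065 or 10.04-fold. Higher by less were Trp53inp1 at 1.16, Mdm2 at 1.15, Bcl2 at 1.10 and Ccng1 at 1.02. Their other probes gave 0.69, 0.91, 0.15 and 1.23 in the same order. The brightest Trp53inp1 probe read 3.06 in untreated tail skin, above the lowest saturated level of 3.04 there, so its value is less certain. Of 10 other settings, Trp53inp1 and Ccng1 kept this call in 6, Mdm2 in 7 and Bcl2 in 8. Bax at -1.24 and Casp9 at -1.17 were lower in untreated back skin. Of 21 genes with a value 6 were higher and 2 lower, against 27.4% and 17.2% of all 12798 genes with a value, or 44.6% either way. Immune cell markers also differed between these skins, and their part was not tested. All 3 T cell markers were higher in untreated back skin (Cd3g by 3.42, Cd8a by 2.69 and Cd4 by 2.17), as were the 3 macrophage markers with a value (Adgre1 by 3.14, Csf1r by 2.12 and Mrc1 by at least 3.89), with Cd163 at background in the back and Mrc1 in the tail. Ivl was higher by 2.72. With cyclic loess these counts were 3 higher and 4 lower.

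The treated skins, back treated minus tail treated, differed in the same 2 genes above all. Fas had levels of 1.72 in treated back and -3.05 in treated tail skin, a difference of 4.76 ± 0.065 or 27.2-fold, and Pmaip1 was at least 32.7-fold higher in treated back skin. Of 29 genes with a value, 7 were higher and 4 lower, against 15.9% and 20.5% of all 14116 genes with a value, or 36.4% either way. The other higher ones were Mdm2 at 1.86, Ccng1 at 1.66, Gadd45b at no less than 1.40, Gadd45a at 1.15 and Plk2 at 1.01. Sesn1 at -1.61, Zmat3 at -1.35, Sesn2 at -1.07 and Casp9 at just past 2-fold were lower. Casp9 kept its call in 5 of 10 other settings and Zmat3 and Sesn2 in 8. These treated arrays are those used above, so the comparison is not independent of the treatment differences.

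Other genes of the pathway were counted from a list of 77, of which 71 were usable. In the tail 6 of 56 with a value were higher and 10 lower, against 27.2% and 6.55% of all genes. In the back 13 of 65 were higher and 7 lower, against 13.6% and 12.6% of all genes. Casp6, a caspase that cuts lamins of the nuclear envelope in dying cells, had levels of 1.65 in treated and -0.35 in control back skin. Its difference was 2.00 in the back and -0.50 in the tail. Casp12 was higher in the back by 1.12, though not past 2-fold with normexp or spike-in scaling, and the inflammatory caspase gene Casp1 was lower, at -1.42. Dffb, the nuclease that fragments DNA once caspases free it, had levels of -2.29 in treated and -4.10 in control back skin, a difference of 1.82, while its inhibitor Dffa differed by -1.01. Among the p53 regulators, the damage checkpoint kinase gene Chek2 was higher in the back by 1.58, and Ppm1d, a phosphatase that shuts p53 off and is a p53 target, differed by -1.65.

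Of the death receptor genes with a value, 4 of 8 were higher in the back and 1 was lower, to be read against the same 13.6% and 12.6% of all genes, as are the other counts for the back. The adaptor gene Tradd was higher by 1.55, the kinase gene Dapk1 by 1.79 and Cflar, which blocks caspase-8, by 1.19. Htra2 and Aifm1, whose products leave mitochondria during cell death, were higher by 1.37 and 1.10. Among other p53 targets 1 of 21 was lower and 3 were higher, namely Trp53i11 at 1.39, Siva1 at 1.36 and Ckap2 at 1.13. The lower one, Pidd1, which encodes a death domain protein, differed by at least -3.47 against a saturated control and is named here because of that value. Of the BCL-2 family only the BH3-only gene Bik was called, at -1.20, among 8 genes with a value. Its level of -6.06 in treated back skin lay close to the lowest level above background there, -6.12. With spike-in scaling Htra2, Aifm1, Siva1, Trp53i11, Ckap2 and Cflar were not past 2-fold in the back, and with the mean of probes Cflar stood at 0.17 and Ckap2 at 0.88.

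Of the 10 lower pathway genes in the tail 3 were p53 regulators. Mdm4, which encodes an inhibitor of p53 related to Mdm2, differed by -1.55, and the damage kinase genes Chek1 and Atm by -1.47 and -1.44. Xiap and Birc3, of the inhibitor of apoptosis family, differed by -2.07 and -1.21, and Apaf1, the scaffold that activates caspase-9, by -1.11.
The repair genes Rrm2b at -1.22, Parp1 at -1.13 and Ddb2 at -1.08 and the inflammatory caspase gene Casp4 at -1.21 were also lower. With normexp, Mdm4, Chek1, Atm, Xiap, Apaf1 and Rrm2b were above 0 instead. Higher in the tail were Bcl2l10 at 1.62, Hrk at 1.18, Cflar at 1.66 and the stress cytokine gene Gdf15 at 1.14. Bcl2l10 and Hrk were not past 2-fold higher with cyclic loess, quantile normalization or spike-in scaling. Neither was Cflar with cyclic loess, spike-in scaling or the mean of probes, nor Gdf15 with spike-in scaling.

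**Figure D4:**
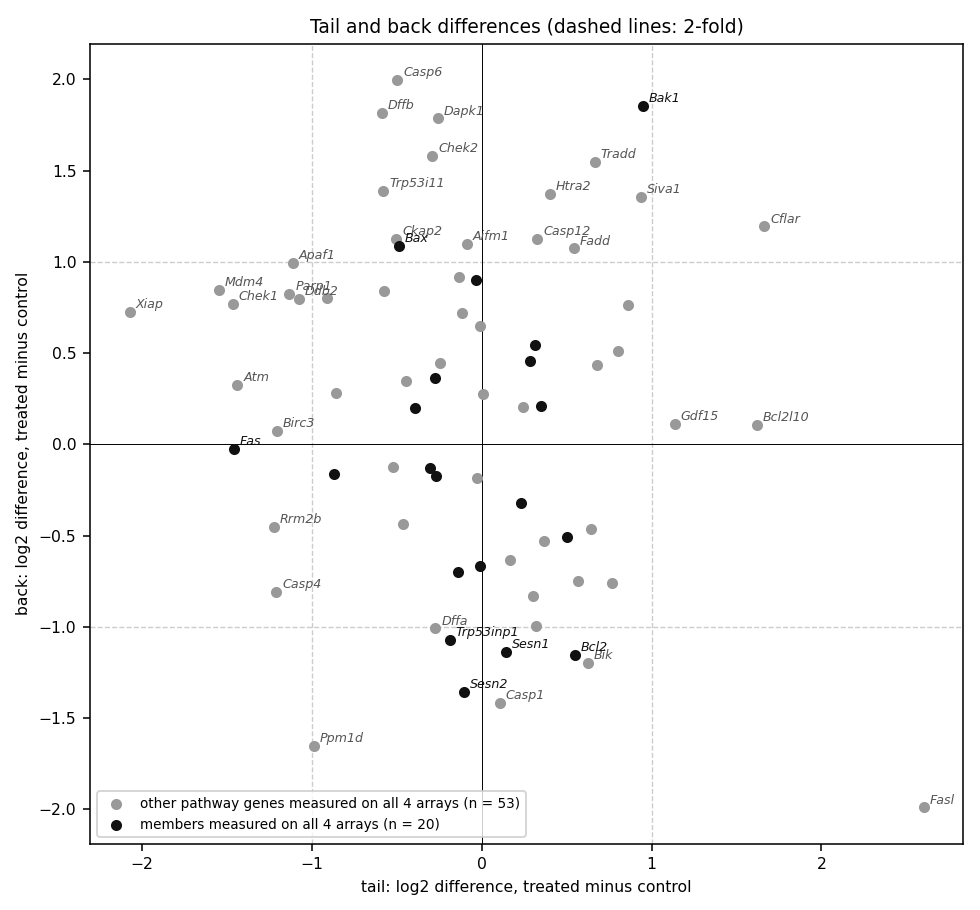
Back difference (y axis) against tail difference (x axis), both log2 treated minus control, for the 20 members (black) and 53 other pathway genes (grey) measured on all 4 arrays. Casp6 lies at 2.00 on the back axis and -0.50 on the tail axis, and Fasl lies alone at 2.60 in the tail and -1.99 in the back.

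Marker genes of other cell types moved on the same arrays, and their part in these results was not tested. In treated back skin 3 of the 5 neutrophil markers were higher, of which Retnlg by 5.47. The summed level of that list was 6.77 in treated and 5.41 in control back skin, a lower limit where S100a8 and S100a9 were saturated, with Csf3r at background in the control. In the tail the summed neutrophil level was 7.17 in treated and 3.10 in control skin, with 3 of 5 markers higher (S100a8 by at least 5.49, Retnlg by at least 3.89 and S100a9 by at least 3.35). Csf3r was at background in both tail groups and Retnlg in the control. Cxcr2, the only neutrophil marker measured on both tail arrays, differed by -0.42 in the tail and -0.79 in the back. Of the 4 macrophage markers, Cd163 was higher in treated back skin by at least 5.32 and Mrc1 by 3.34. Adgre1 at 0.31 and Csf1r at -0.62 stayed within 2-fold there. For the tail, Cd163 was higher by 3.21, Adgre1 and Csf1r differed by -0.38 and 0.18, and Mrc1 had no value. The 3 T cell markers on the array, Cd3g, Cd4 and Cd8a, were all lower in treated back skin, with a summed level of -2.23 in treated and 1.66 in control back skin. In the tail 4 of 5 skeletal muscle markers were higher, and the summed level of the skeletal muscle list was -1.41 in treated and -3.63 in control skin, and that of the endothelial list was -2.58 and -5.08 in the same groups, with Tek at background in both and Kdr in treated skin. Of the 6 fibroblast markers 3 were higher in the tail, and the list summed to 1.73 in treated and 0.64 in control tail skin, with Pdgfra at background in both. In the back 3 of 4 muscle markers with a value were higher. The muscle list summed to -1.34 in treated and -2.77 in control back skin, with Ckm at background in both. The endothelial list summed to -2.91 and -4.29 there, with Kdr and Tek at background in both. Of the fibroblast markers 3 were higher and 1 lower in the back, with sums of 1.08 and 1.32.

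How firmly the called genes stood depended on the setting. In the back, Sesn2 was past 2-fold lower under all 10 other settings tried. Cdkn1a, Sesn1 and Trp53inp1 were past it under all but quantile normalization, which put them at -0.74, -0.99 and -0.67. Btg2 missed it with its brightest unsaturated probe, at -0.84. Bax was at 0.63 with spike-in scaling, and the means over probes were 0.28 for Bak1 and -0.91 for Bcl2.

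**Figure D5:**
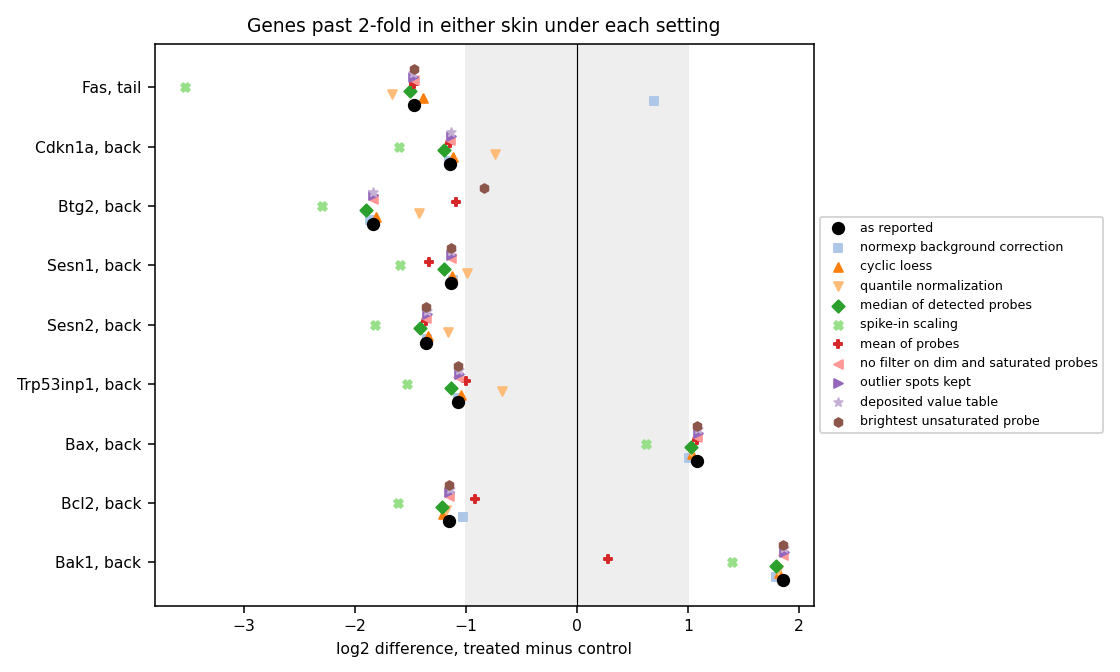
Log2 treated minus control difference (x axis) of the 9 genes past 2-fold in either skin, as reported (black circles) and under the other settings (symbols). The Fas value in the tail turns to 0.69 with normexp background correction, and the Bak1 value in the back shrinks to 0.28 when its probes are averaged. Cdkn1a, Sesn1, Sesn2 and Trp53inp1 stay below 0 under every setting drawn.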

How the data were processed

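Total RNA (200 ng per sample, per the labels' protocols) was labelled with Cy3 and hybridised to Agilent arrays. The deposited intensity per spot is the processed signal of Feature Extraction, whose version is 10.5.1.1 per the file headers and 10.7 per the submitters' processing notes. The authors' deposited table is on a log2 scale with each probe centred on its median. Its making is not stated in the sources used here. Column medians were 0.10, -0.28, 0.08 and -0.03 for tail treated, tail control, back treated and back control. Its differences between arrays matched the log2 processed signal plus a constant within 0.01 for at least 99.7% of probes, so its direction and scale were known.

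Here log2 signals were scaled to each array's 75th percentile. Outlier spots were left out and repeated spots averaged. Of 41174 probes, 24375 (59.2%) were named with 1 symbol by matching accessions to RefSeq transcripts (GRCm38.p6). The headers name build mm8, so probes are given no coordinates. Saturated or dim spots gave bounds. Differences have no p-value, as the number of arrays limits the precision, and array and group cannot be told apart. Calls were tested on simulated data, with changes planted in genes neither dim nor saturated and with the scanner's spot error alone. That test does not cover saturation, bias that varies with brightness, or the spread between animals. All 30 members are named, with up to 3 genes past 2-fold per pathway group and skin, and 2 genes of the pathway list are not reported here. The members and lists were chosen with earlier results of these data known. Alternatives used limma 3.58.1, R 4.3.3 and Python 3.11.15.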

Additional observations from a re-analysis of the deposited data

Results flagged for a closer look

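Fasl and Casp14, pathway genes outside the 30, were past 2-fold in opposite directions in the 2 skins, and the difference between the skins was not tested. Fasl, which encodes the ligand of Fas and is made mainly by cytotoxic lymphocytes, was higher by 2.60 in treated tail skin and differed by -1.99 in treated back skin. Its levels were -5.46 in treated and -8.06 in control tail skin, and -6.03 in treated and -4.04 in control back skin. The lowest level above background was -8.42 for control tail skin and -6.12 for treated back skin. Fasl lay close to that limit in both of these groups, so each of its differences rests on 1 level near background. Fasl was read by 2 probes, and only the brightest is given. The T cell markers moved alike: Cd8a differed by 2.75 in the tail and -1.52 in the back, Cd4 by 1.29 and -4.85, and Cd3g by 0.43 and -1.41. Their part in the Fasl values was not tested. Fasl was not past 2-fold in the tail with spike-in scaling, at 0.53, nor in the back with normexp, at -0.38. Casp14, a caspase of the cornified layer that is not part of cell death elsewhere, was higher by 1.34 in the tail and lower by at least 8.05-fold in the back, at -3.01 on the log2 scale against a saturated control. In the tail Casp14 was not past 2-fold higher with normexp, with cyclic loess or with spike-in scaling, which put it at -0.73.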

How the results depend on the processing

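Of 10 other settings 9 were planned and 1, the brightest probe unsaturated on all arrays, was added after seeing the data. Counts of the 30 genes at least 2-fold higher and lower are given by comparison, and for the changes listed the cause was not tested unless stated. In treated minus control tail skin, 0 and 1 became 3 and 0 with normexp, 1 and 5 with cyclic loess, 0 and 3 with quantile normalization, with the mean of probes and with the unsaturated probe, 0 and 24 with spike-in scaling (6 spike-in probes), and 6 and 1 without the filter, which lets saturated spots count as measured. In treated minus control back skin, 2 and 6 became 2 and 3 with quantile normalization, 1 and 8 with spike-in scaling and 1 and 7 with the mean of probes. In untreated back minus tail skin, 6 and 2 became 3 and 4 with cyclic loess or quantile normalization, 2 and 6 with spike-in scaling and 15 and 2 without the filter. In treated back minus tail skin, 7 and 4 became 8 and 2 with normexp, 17 and 0 with spike-in scaling and 4 and 4 with the unsaturated probe. For the back minus the tail difference, 2 and 4 became 4 and 1 with cyclic loess, 3 and 1 with quantile normalization, 14 and 0 with spike-in scaling, 2 and 1 with the mean of probes and 3 and 8 without the filter.

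Single genes that turned direction did so with normexp or spike-in scaling. In the tail with normexp these were Fas at 0.69, Apaf1 at 0.88, Atm at 1.99, Chek1 at 1.32, Mdm4 at 0.45, Rrm2b at 0.56 and Xiap at 2.69. In the tail with spike-in scaling they were Bcl2l10 at -0.45, Casp14 at -0.73, Cflar at -0.41, Gdf15 at -0.93 and Hrk at -0.89. In the back with normexp Bik was at 0.038. Between treated skins with normexp Xiap was at -1.70. For the back minus the tail difference, spike-in scaling gave Sesn1 0.33, Sesn2 0.36, Bcl2l1 0.60, Bcl2l10 0.094, Casp1 0.087 and Gdf15 0.59, and normexp gave Fas -0.70, Atm -1.54, Chek1 -0.62, Chek2 -0.99 and Xiap -2.00.

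Of all genes called in the tail, 80.6% were higher, against 91.5% with normexp, 54.0% with cyclic loess, 57.8% with quantile normalization and 1.28% with spike-in scaling. In the back the share was 51.8%, and 20.7% with spike-in scaling. Between untreated skins it was 61.4%, against 48.0% with cyclic loess, 47.3% with quantile normalization and 22.8% with spike-in scaling. Between treated skins it was 43.7%, against 21.8% with normexp and 81.9% with spike-in scaling. For the back minus the tail difference it was 35.2%, against 21.0%, 50.9%, 49.1% and 92.9% with normexp, cyclic loess, quantile normalization and spike-in scaling. No paired analysis was possible because each group has 1 array, and for the same reason no array could be left out.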
